A study of Mus musculus with 4 samples.

Results

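The 44 genes described here are the transcripts that a dividing cell makes in S phase, when it copies its DNA, and in G2 and mitosis (G2/M), when it separates the copies. They were chosen by name, as 17 S members and 27 G2/M members, and all 44 were found among the 31053 genes of the deposited features. The S members were Mcm2 to Mcm7, Cdc6, Cdt1, Gins2, E2f1, Uhrf1, Pcna, Tyms, Dut, Tk1, Rrm1 and Rrm2. The G2/M members were Cdk1, Ccna2, Ccnb1, Ccnb2, Plk1, Aurka, Aurkb, Birc5, Cdca8, Cenpa, Cenpe, Cenpf, Spc24, Bub1, Bub1b, Cdc20, Ube2c, Cdca3, Tpx2, Nusap1, Kif11, Prc1, Hmmr, Stmn1, Mki67, Top2a and Hmgb2.

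They were read in 4 droplet single-cell RNA libraries of C57BL/6 mouse spleen, 1 library per group and no replicates. Young WT and Aged WT mice carried a floxed miR-155 gene (miR155 fl/fl) and no deletion. The miR-146a KO mice lacked miR-146a in every cell, and the Double KO mice lacked miR-146a in every cell and miR-155 in T cells. The 3 aged groups were 15 months old and each library pooled 3 to 6 mice. Neither the age and pool size of the young mice nor the Cre line that removed miR-155 is stated in the sources used here. Cells were sorted as live CD45+ (blood lineage) cells of low forward and side scatter, a gate that favours small cells. The libraries held 7626, 6952, 5702 and 7297 barcodes, in the order Young WT, Aged WT, miR-146a KO, Double KO, which is kept for every set of values below. The authors named a cell type for 24143 of the 27577 barcodes, with 501 to 9001 UMIs (counted transcript molecules) in a named cell. Pairs of libraries shared 48 to 91 barcode sequences, between 0.658% and 1.26% of a library, and these were kept.

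As background, E2F transcription factors switch on the S phase genes when a cell leaves its resting state, and the MuvB complexes with B-MYB and FOXM1 switch on the G2/M genes some hours later. In resting cells the DREAM complex holds both groups down. In the spleen most lymphocytes rest, and division is known from germinal centres, where activated B cells multiply in the dark zone (centroblasts) and are selected in the light zone (centrocytes), from activated T cells, and from blood cell precursors, which the mouse spleen also holds.

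The 2 phases differed in the letters of their promoters. RefSeq windows on GRCm38.p6, from 250 bases before to 50 bases after each start site, were matched by symbol for 15 of the 17 S members and 22 of the 27 G2/M members. The CHR element of G2/M genes (TTTGAA or TTCGAA, either strand) was present in 18 of 22 G2/M members (81.8%), in 2 of 15 S members (13.3%) and in 21.7% of all 27025 symbols with a window. The E2F motif (TTTCCCGC, TTTCGCGC, TTTGCCGC or TTTGGCGC, either strand) was present in 7 of 15 S members (46.7%), in 1 of 22 G2/M members, Cdk1 (4.55%), and in 2.60% of all symbols. The CCAAT box (CCAAT, either strand) was present in 20 of 22 G2/M members (90.9%), 9 of 15 S members (60%) and 41.1% of all symbols. The searched letters are a description of these windows and not evidence of binding. A few of these windows are printed 5′ to 3′ on the strand of the gene, because they show the contrast between the phases in members whose values are given below. Capitals mark CHR matches in Ccnb2 (chr9:70421505-70421804, minus strand), Top2a (chr11:99024140-99024439, minus strand) and Hmgb2 (chr8:57511593-57511892, plus strand), and E2F matches in Mcm5 (chr8:75109259-75109558, plus strand) and Mcm6 (chr1:128359656-128359955, minus strand). A match on the opposite strand reads TTCAAA for CHR, and in Mcm5 and Mcm6 a forward and a reverse E2F match overlap.
Ccnb2: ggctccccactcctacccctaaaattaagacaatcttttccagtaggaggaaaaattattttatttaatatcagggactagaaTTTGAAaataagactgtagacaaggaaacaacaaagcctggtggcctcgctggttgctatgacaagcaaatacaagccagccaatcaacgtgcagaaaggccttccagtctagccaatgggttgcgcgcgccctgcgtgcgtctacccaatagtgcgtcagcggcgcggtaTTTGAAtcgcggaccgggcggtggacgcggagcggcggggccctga
Top2a: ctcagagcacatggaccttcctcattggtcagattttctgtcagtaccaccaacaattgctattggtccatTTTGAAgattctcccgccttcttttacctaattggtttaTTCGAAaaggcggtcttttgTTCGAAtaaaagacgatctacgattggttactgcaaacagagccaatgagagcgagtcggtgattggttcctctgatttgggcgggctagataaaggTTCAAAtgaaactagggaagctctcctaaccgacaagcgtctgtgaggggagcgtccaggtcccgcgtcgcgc
Hmgb2: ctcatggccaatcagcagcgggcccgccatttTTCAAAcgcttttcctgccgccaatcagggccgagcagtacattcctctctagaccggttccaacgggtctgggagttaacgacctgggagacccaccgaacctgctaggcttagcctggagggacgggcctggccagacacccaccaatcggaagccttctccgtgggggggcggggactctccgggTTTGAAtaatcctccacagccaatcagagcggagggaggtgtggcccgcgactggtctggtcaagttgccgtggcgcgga
Mcm5: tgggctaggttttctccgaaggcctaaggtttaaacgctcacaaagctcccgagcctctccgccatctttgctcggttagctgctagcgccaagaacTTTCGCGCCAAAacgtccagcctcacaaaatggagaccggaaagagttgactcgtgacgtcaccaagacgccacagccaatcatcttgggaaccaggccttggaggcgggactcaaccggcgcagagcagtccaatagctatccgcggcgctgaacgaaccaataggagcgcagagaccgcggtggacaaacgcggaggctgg
Mcm6: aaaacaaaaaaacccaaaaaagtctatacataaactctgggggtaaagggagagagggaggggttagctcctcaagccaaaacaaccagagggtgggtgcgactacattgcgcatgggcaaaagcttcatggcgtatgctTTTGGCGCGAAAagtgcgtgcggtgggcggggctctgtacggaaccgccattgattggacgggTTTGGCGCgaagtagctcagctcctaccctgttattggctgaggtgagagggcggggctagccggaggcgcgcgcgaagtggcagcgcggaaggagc

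Over all named cells, both knockout libraries had more G2/M transcripts than either WT library, and a smaller excess of S transcripts. The summed level is given as CPM, the members' UMIs per 1000000 UMIs of the same cells, with a 95% interval that covers counting error only, since no difference between mice or preparations can be read from 1 library per group. The S sum came to 352, 386, 456 and 467 CPM in the 4 libraries. The G2/M sum was 399, 429, 1031 and 1025 CPM. The miR-146a KO to Aged WT ratio was 1.18 (1.14 to 1.22) for S and 2.40 (2.33 to 2.48) for G2/M. On the log2 scale these were 0.24 and 1.27. With the types weighted as in Aged WT they were -0.011 and 0.46, and with every barcode 0.89 and 1.76. The Double KO differed little from the miR-146a KO in these sums, at 1.02 (0.99 to 1.06) for S and 0.994 (0.973 to 1.02) for G2/M.

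A single gene weighed on the G2/M sum. Hmgb2, a chromatin protein that bends DNA and that is also made by cells that do not divide, gave 24956 UMIs, 52.2% of all G2/M UMIs. Stmn1, which loosens microtubules, gave 5368 UMIs. Both were kept as members, but sums are also given for the other 25 G2/M members, called the core G2/M members below. The core sum was 126, 148, 405 and 377 CPM, and the miR-146a KO to Aged WT ratio was 2.73 (2.60 to 2.87). No S member weighed as much: Dut, which keeps uracil out of DNA, came first with 3628 UMIs, 13.2% of the S UMIs.

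Among named cells, G2/M transcripts were concentrated in one small cell type, and S transcripts were spread. Cells that the authors named GC Centrocyte were 0.645%, 0.865%, 2.67% and 2.27% of named cells (44, 51, 129 and 150 cells) and held 53.1%, 53.3%, 64.1% and 55.1% of the core G2/M UMIs of named cells. They held 13.3%, 15.6%, 31.1% and 30.9% of the S UMIs of named cells. The shares depend on leaving out barcodes without a name: of 2849, 3405, 14447 and 12747 core G2/M UMIs in all barcodes, GC Centrocyte cells held 1184, 1165, 3945 and 3790, and unnamed barcodes 621, 1218, 8292 and 5864. How the names were given is not stated in the sources used here, and the members may have been part of what set the type apart, so its high level is a description. Over the 4 libraries, 22 of 25 core G2/M members and 3 of 17 S members had more than 50% of their UMIs in GC Centrocyte cells, with medians of 63.0% and 23.7%.

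**Figure D1:**
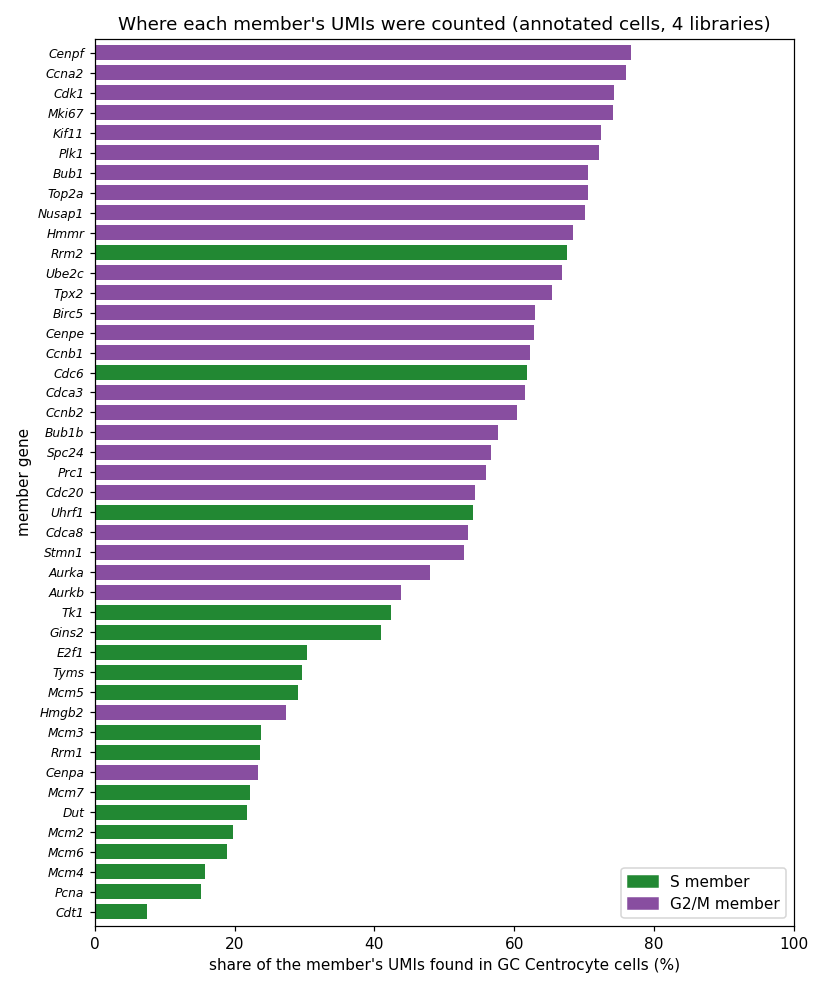
Share of each member's UMIs that was counted in GC Centrocyte cells, in percent of its UMIs in named cells of the 4 libraries (bars; green S, purple G2/M). The bars run from 7.40% for Cdt1 to 76.7% for Cenpf, and the S members Rrm2, Cdc6 and Uhrf1 sit among the G2/M members.

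The members of a phase were not alike in this respect. The highest shares belonged to Cenpf, a kinetochore protein (76.7%), Ccna2, cyclin A2 (76.0%), Cdk1, the mitotic kinase (74.3%), and Mki67, the Ki-67 antigen that coats mitotic chromosomes (74.2%). The lowest among core G2/M members were Cenpa, the centromeric histone H3 (23.4%), Aurkb, the kinase of the chromosomal passenger complex (43.8%), and Aurka, a centrosome kinase (48.0%). Among S members, Rrm2, the regulated subunit of ribonucleotide reductase, had 67.5% of its UMIs in GC Centrocyte cells, and its partner subunit Rrm1 had 23.7%. Cdc6 and Cdt1 load the MCM helicase together, yet Cdc6 had 61.8% and Cdt1 7.40%. Pcna, the sliding clamp, and Mcm4 were low as well, at 15.2% and 15.7%.

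Read type by type, the core G2/M sum of GC Centrocyte cells was 4434 CPM (4185 to 4693) in Young WT, 3696 (3487 to 3914) in Aged WT, 5367 (5201 to 5538) in miR-146a KO and 4630 (4483 to 4779) in Double KO. In Fo B (follicular B) cells it was 82.0, 83.1, 92.6 and 81.0 CPM, and in MZ B (marginal zone B) cells 66.1, 52.6, 59.4 and 55.9 CPM. The follicular intervals overlapped in all 4 libraries, and the gap between these resting types and the GC Centrocyte cells was larger than any gap between libraries. The S sum was also highest in GC Centrocyte cells, with a smaller gap, 2817 to 3226 CPM in GC Centrocyte cells against 266 to 300 CPM in Fo B cells. S UMIs per core G2/M UMI were therefore 0.696, 0.762, 0.546 and 0.697 in GC Centrocyte cells and 3.26, 3.61, 2.87 and 3.47 in Fo B cells.

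**Figure D2:**
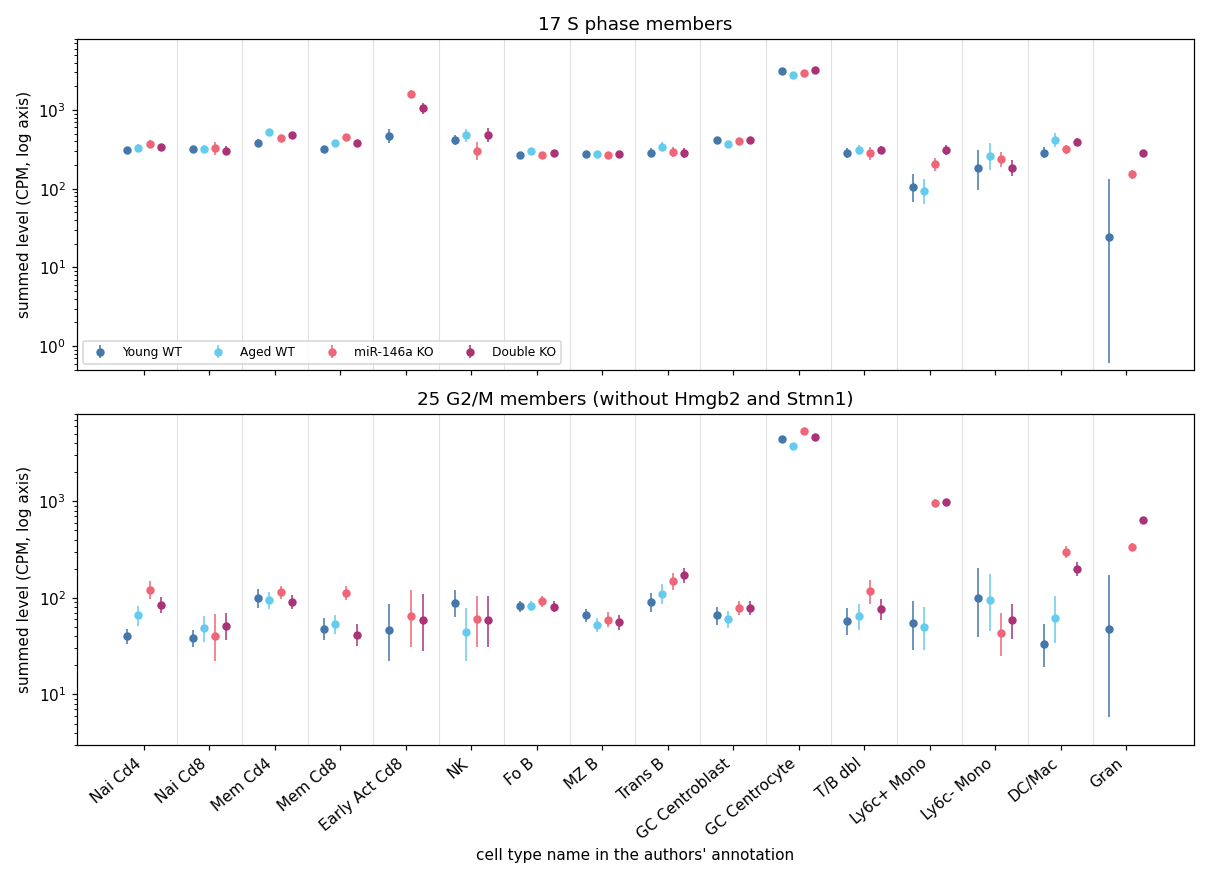
Summed CPM (log axis) of the 17 S members (top) and the 25 core G2/M members (bottom) for each named cell type and library, with 95% counting intervals; types with fewer than 20 cells in a library have no point there. GC Centrocyte cells stand above every other type in both panels. Ly6c+ Mono and DC/Mac cells are high in the bottom panel in the 2 knockout libraries. Gran cells are high there too, but the 16 Gran cells of Aged WT, with 53 core G2/M UMIs, have no point.

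The name of that type went against the members. In textbook germinal centres the centroblasts divide and the centrocytes do so less, but cells named GC Centroblast had core G2/M sums of 65.9, 60.2, 78.4 and 79.4 CPM, at the level of resting B cells. Their S sum was somewhat above that of Fo B cells, at 418, 366, 403 and 413 CPM. The light zone markers Cd83 and Cd86 summed to 407, 464, 463 and 434 CPM in GC Centroblast cells and to 112, 194, 184 and 239 CPM in GC Centrocyte cells. The authors' names are kept here as labels only.

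GC Centrocyte cells were also of several lineages. A cell was counted as T if its 7 T cell genes reached 1500 CPM and its 5 B cell genes stayed below 2000 CPM, limits set after the values were seen. By this count 12 of 44, 16 of 51, 9 of 129 and 12 of 150 GC Centrocyte cells were T cells. The 7 T cell genes summed to 1393, 1307, 302 and 354 CPM in the type. B precursor genes (Vpreb1, Vpreb3, Igll1, Rag1, Dntt) summed to 288, 314, 1140 and 963 CPM. Igll1 and Vpreb1, which encode the surrogate light chain, had no UMI in the WT libraries. In miR-146a KO and Double KO, Igll1 was at 72.1 and 55.0 CPM (53 and 45 UMIs) and Vpreb1 at 84.4 and 75.7 CPM. The other listed genes thus gave all of the WT sums and most of the knockout sums. Cells with these genes were not counted. The 5 erythroid genes were at 0 UMIs in both WT libraries and at 5093 and 2894 CPM in the knockout libraries. Few cells passed 10000 CPM of these genes, a limit also set after the values were seen. In miR-146a KO they were 1 of 95 cells with UMIs of at least 3 core G2/M members and 0 of the 34 others. In Double KO they were 2 of 106 and 0 of 44. Pf4, a gene of megakaryocytes (platelet precursors), had 238, 0, 1 and 0 UMIs in the type, which is 891 CPM in Young WT. How many cells held them was not counted. The part of these other cells in the members' sums was not tested.

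Most GC Centrocyte cells carried members of both phases. A cell was called positive for a phase if it had UMIs of at least 3 of its members (of the core for G2/M). Of the GC Centrocyte cells, 29 of 44 (65.9%), 39 of 51 (76.5%), 95 of 129 (73.6%) and 106 of 150 (70.7%) were G2/M-positive, and 24, 35, 78 and 99 of these were S-positive too. In Fo B cells, which should rest, 0.135%, 0.0563%, 0.493% and 0.0635% were G2/M-positive, at median depths of 1725, 1678, 2296 and 1758 UMIs against 6375, 6682, 5622 and 5228 UMIs in GC Centrocyte cells. With every cell thinned to 1000 UMIs the GC Centrocyte shares were 40.9%, 41.2%, 49.6% and 46.7%, and no Fo B cell was positive in 3 of the libraries, with 1 of 1460 in Young WT. The thinned shares of GC Centrocyte cells had intervals that overlapped between all libraries.

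In B cells, here both GC types together with Fo B, Trans B and MZ B, age went with little difference in the sums. This class includes the GC Centrocyte cells that were counted as T cells above. Of the G2/M-positive GC Centrocyte cells, 10 of 29, 16 of 39, 9 of 95 and 10 of 106 were so counted. Their part in the B cell sums and ratios was not tested. The S sum was 397 CPM in Young WT and 400 in Aged WT (ratio 1.01, 0.96 to 1.06), and the core G2/M sum was 226 and 203 CPM (ratio 0.898, 0.84 to 0.96). A difference of 1.5-fold or more is called higher or lower below, a statement of size and not a test. All 44 members reached the minimum of 20 UMIs over both libraries. In Aged WT against Young WT, 1 member was higher, where 4.24% of all 10332 measured genes were, and 4 were lower, where 3.68% were. The median log2 ratio was -0.07 for the members and -0.02 for all genes.

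The member that was higher with age was Plk1, a kinase that drives entry into mitosis, with 1.83 CPM in Young WT and 3.37 in Aged WT (ratio 1.85, 0.945 to 3.78). Ccnb1, cyclin B1, came next at 3.52 and 5.23 CPM (ratio 1.49, 0.902 to 2.49). The 4 lower members were Cdc6 at 1.56 and 0.930 CPM, Kif11, the kinesin that pushes spindle poles apart, at 3.26 and 1.98 CPM, Cenpf at 8.22 and 5.0 CPM, and Rrm2 at 17.3 and 10.8 CPM. Only the intervals of Cenpf (0.403 to 0.911) and Rrm2 (0.473 to 0.818) lay below 1 among these 4. Both genes had most of their UMIs in GC Centrocyte cells, and in that type Rrm2 was at 449 CPM in Young WT and 238 in Aged WT (ratio 0.530, 0.391 to 0.712).

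Against Aged WT, the miR-146a KO library had higher levels of most members in B cells. The core G2/M sum was 203 CPM in Aged WT and 584 in miR-146a KO (ratio 2.87, 2.72 to 3.04), and the S sum was 400 and 553 CPM (ratio 1.38, 1.32 to 1.44). Of the 44 members 34 were higher (77.3%), where 7.83% of all 10481 measured genes were, and none was lower, where 4.2% were. The median log2 ratio was 1.5 for the members and -0.04 for all genes. By phase, 26 of 27 G2/M members and 8 of 17 S members were higher. The Double KO to Aged WT ratio, which shares the Aged WT library, was 2.57 (2.43 to 2.71) for the core G2/M sum and 1.48 (1.41 to 1.54) for the S sum.

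**Figure D3:**
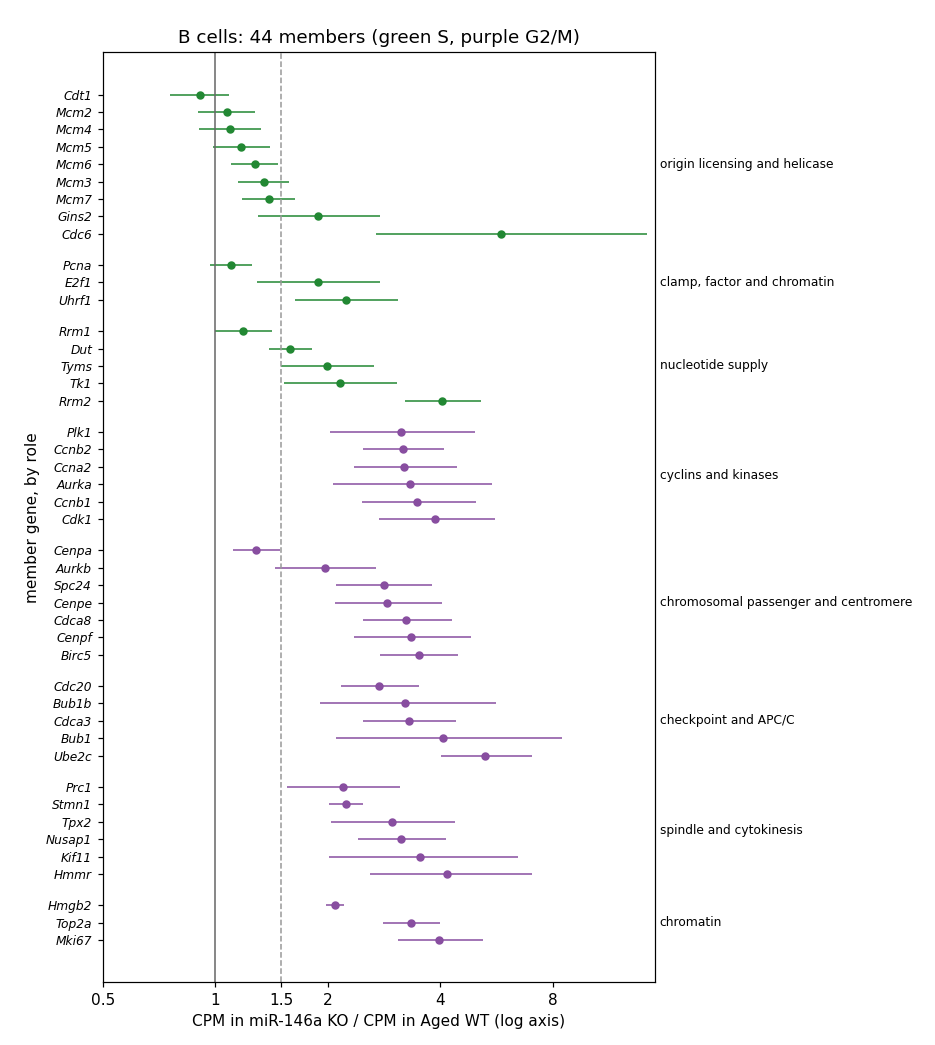
Ratio of CPM in miR-146a KO to CPM in Aged WT (log axis) of each member in B cells, by role, with 95% counting intervals; the solid line marks 1 and the dashed line 1.5. G2/M members (purple) lie between 1.29 and 5.28 and the MCM helicase genes (green, top) between 1.07 and 1.39.

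Among the licensing genes the difference was uneven. Cdc6 was at 1.56, 0.930, 5.41 and 3.54 CPM in the 4 libraries, 5.82-fold (2.70 to 14.4) higher in miR-146a KO than in Aged WT. Cdt1, its partner, was at 28.2, 30.9, 28.1 and 26.6 CPM, a ratio of 0.909 (0.756 to 1.09). The knockout libraries were thus both above the WT libraries for Cdc6, and all 4 were close for Cdt1.

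The 6 MCM helicase subunits all had ratios below 1.5. Mcm2 was at 30.3, 31.3, 33.5 and 43.6 CPM and Mcm3 at 29.0, 34.7, 46.8 and 50.6 CPM. Mcm4 was at 23.3, 26.0, 28.5 and 33.1 CPM and Mcm5, whose promoter is printed above, at 22.0, 29.8, 34.9 and 38.0 CPM. Mcm6 was at 39.5, 42.2, 53.7 and 68.8 CPM and Mcm7 at 29.0, 31.1, 43.3 and 48.6 CPM. All 6 were lowest in Young WT and highest in Double KO. Against Aged WT the miR-146a KO ratios ran from 1.07 (0.90 to 1.28) for Mcm2 to 1.39 (1.18 to 1.64) for Mcm7.

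The nucleotide supply genes were uneven as well. Rrm2 was at 17.3, 10.8, 43.8 and 41.2 CPM, 4.05-fold (3.21 to 5.16) higher in miR-146a KO, and Rrm1 at 28.0, 28.8, 34.3 and 39.2 CPM, 1.19-fold (0.997 to 1.42). Tk1, thymidine kinase, was at 7.17, 6.04, 13.0 and 12.5 CPM and Tyms, thymidylate synthase, at 9.13, 9.18, 18.3 and 20.2 CPM. Dut was at 60.4, 45.2, 71.8 and 79.2 CPM. In all of these genes both knockout libraries were above both WT libraries, and for all but Dut by more than the gap between the WT libraries. Pcna did not share this pattern, at 54.4, 55.4, 61.1 and 53.1 CPM (ratio 1.1, 0.968 to 1.25). E2f1, the activator of S phase genes, was at 7.30, 5.35, 10.1 and 7.56 CPM (ratio 1.88, 1.29 to 2.77), with Double KO close to Young WT.

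The cyclins and kinases of mitosis were higher together. Cdk1 was at 7.30, 4.88, 18.9 and 19.4 CPM, 3.88-fold (2.74 to 5.61) higher in miR-146a KO than in Aged WT. Ccnb1 was at 3.52, 5.23, 18.2 and 15.1 CPM (3.47-fold, 2.47 to 4.98) and Ccnb2, cyclin B2, at 8.35, 10.5, 33.3 and 33.7 CPM (3.18-fold, 2.49 to 4.09). For all 3 genes the knockout values were more than 1.5-fold above the higher WT value. Ccna2, Plk1 and Aurka had ratios of 3.21, 3.14 and 3.33.

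Of the chromosomal passenger and centromere genes, Birc5 (survivin) was at 13.0, 10.8, 37.9 and 29.8 CPM, 3.51-fold (2.77 to 4.48) higher in miR-146a KO. Cenpa was at 42.5, 40.9, 52.7 and 55.7 CPM, and its ratio of 1.29 (1.11 to 1.49) made it the G2/M member below 1.5-fold. Cenpa was also the core member with the lowest share of its UMIs in GC Centrocyte cells. Ube2c, the ubiquitin-conjugating enzyme that works with the anaphase-promoting complex, was at 10.0, 7.32, 38.7 and 25.05 CPM, and its 5.28-fold ratio (4.01 to 7.04) came second after Cdc6 among the members. Cdc20, which activates that complex, had a ratio of 2.74 (2.16 to 3.50).

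Of the chromatin members, Top2a, the topoisomerase that untangles chromosomes, was at 24.0, 20.2, 67.5 and 58.0 CPM, 3.34-fold (2.81 to 3.99) higher in miR-146a KO. Mki67 was at 12.9, 8.83, 35.2 and 29.4 CPM, 3.98-fold (3.08 to 5.21) higher. Hmgb2 was at 230, 218, 456 and 421 CPM and its ratio was smaller, 2.09 (1.98 to 2.21), as was that of the spindle member Stmn1 at 77.6, 63.6, 142 and 155.3 CPM, 2.24 (2.02 to 2.48). In these 4 genes each knockout library was above both WT libraries and their intervals did not overlap.

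GC Centrocyte cells were 44 of 3316, 51 of 3719, 129 of 2473 and 150 of 3336 B cells, and their part in the B cell sums depends on a name that the members may have helped to give. Without them, the core G2/M sum of B cells was 74.6, 70.4, 83.9 and 81.9 CPM, and the miR-146a KO to Aged WT ratio was 1.19 (1.06 to 1.34) in place of 2.87. The S sum without them was 300, 308, 304 and 308 CPM, and the ratio 0.985 (0.93 to 1.04) in place of 1.38. With the types weighted as in Aged WT, the log2 ratio of the G2/M sum was 0.32 in place of 1.29 and that of the S sum -0.033 in place of 0.47. Within GC Centrocyte cells the miR-146a KO to Aged WT ratio was 1.45 (1.36 to 1.55) for the core G2/M sum and 1.04 (0.96 to 1.13) for the S sum. There Ube2c was at 258, 178, 378 and 246 CPM, Mki67 at 344.5, 219, 350 and 292 CPM, and Rrm2 at 449, 238, 429 and 393 CPM. In Mki67 and Rrm2, miR-146a KO was at the level of Young WT, and Aged WT was the low library. In Trans B (transitional B) cells the core G2/M sum was 90.6, 111, 148 and 171 CPM, from 76 to 125 UMIs. The Double KO interval (142 to 203) lay above those of both WT libraries there, and the miR-146a KO interval (120 to 182) overlapped that of Aged WT (87.2 to 139).

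Against miR-146a KO, the Double KO had nearly the same levels in the B cell class. By design miR-155 was not deleted in B cells, but the class also holds GC Centrocyte cells counted as T cells. The S sum was 553 and 591 CPM (ratio 1.07, 1.03 to 1.11) and the core G2/M sum 584 and 522 CPM (ratio 0.893, 0.86 to 0.93). No member was higher, where 2.99% of all 10537 measured genes were, and 3 were lower, where 3.33% were. Median log2 ratios were -0.07 for the members and 0.03 for all genes. The 3 were Bub1, a spindle checkpoint kinase, at 5.67 and 3.07 CPM (ratio 0.542, 0.320 to 0.90), Ube2c at 38.7 and 25.05 CPM (0.648, 0.541 to 0.775) and Cdc6 at 5.41 and 3.54 CPM (0.655, 0.396 to 1.07). The highest ratios were those of Mcm2 (1.30, 1.11 to 1.53) and Mcm6 (1.28, 1.13 to 1.45).

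T cells (the authors' naive and memory types, Nai Cd4, Nai Cd8, Mem Cd8 and Mem Cd4, with Early Act Cd8, early activated cells) had few G2/M transcripts in any library. Their core G2/M sum was 46.6, 64.0, 107 and 68.2 CPM, from 372, 292, 421 and 344 UMIs, and their S sum 325, 389, 469 and 411 CPM. T cells that were named GC Centrocyte are not part of these sums. The core sum was thus highest in miR-146a KO, with an interval (96.7 to 117) above those of the other 3 libraries, and lowest in Young WT (42.0 to 51.6). Only 2 of 2904, 7 of 1755, 7 of 1514 and 5 of 2083 T cells were G2/M-positive, and after thinning to 1000 UMIs 1 T cell of Double KO was. By the T cell gene limits given above, a further 10, 16, 9 and 10 G2/M-positive T cells were named GC Centrocyte. Among all 6821, 5896, 4832 and 6594 named cells, 12, 23, 20 and 17 were G2/M-positive and passed these limits. Most such cells thus lay outside this class, and T cell sums that include them were not computed.

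With age, in T cells, the S sum was 1.19-fold (1.12 to 1.27) and the core G2/M sum 1.37-fold (1.17 to 1.61) higher in Aged WT than in Young WT. The G2/M sum with all 27 members was 1.15-fold (1.07 to 1.23) higher. Its log2 ratio was 0.20, -0.042 without Hmgb2 and 0.46 without Hmgb2 and Stmn1, because Stmn1 went the other way. Of 23 members with at least 20 UMIs, 7 were higher, where 13.9% of all 10145 measured genes were, and 2 were lower, where 3.71% were. The median log2 ratio was 0.40 for these members and 0.11 for all genes, and the remaining 21 members had too few UMIs to be read.

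Uhrf1, which copies DNA methylation at the replication fork, was at 0.751 CPM in Young WT and 3.51 in Aged WT, from 6 and 16 UMIs (ratio 4.67, 1.73 to 14.6). Prc1, which bundles microtubules of the spindle midzone, was at 1.00 and 3.07 CPM from 8 and 14 UMIs (ratio 3.06, 1.20 to 8.43). These were the highest ratios, and both rested on few UMIs. Mcm6 rested on 351 and 321 UMIs, at 43.9 and 70.3 CPM (ratio 1.60, 1.37 to 1.87), and Tyms on 88 and 90 UMIs (1.79, 1.32 to 2.43). Aurka, Cdca8 and Top2a were the other 3 higher members. Stmn1 was lower, at 44.3 and 24.3 CPM from 354 and 111 UMIs (ratio 0.549, 0.439 to 0.681), as was Rrm2 at 3.38 and 2.19 CPM, with an interval that held 1 (0.280 to 1.38).

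In miR-146a KO T cells the core G2/M sum was 1.67-fold (1.43 to 1.94) and the S sum 1.21-fold (1.13 to 1.29) that of Aged WT. Of 28 measured members 11 were higher, where 10.2% of all 10026 measured genes were, and 1 was lower, where 5.66% were. The medians were 0.44 for the members and 0.06 for all genes on the log2 scale. Birc5 was at 0.501, 0.657, 5.32 and 1.98 CPM, from 4, 3, 21 and 10 UMIs (ratio to Aged WT 8.09, 2.42 to 42.4). Tk1 was at 0.501, 1.1, 7.60 and 1.98 CPM, from 4, 5, 30 and 10 UMIs (6.94, 2.66 to 22.9). Mki67 was at 0.626, 1.31, 5.32 and 2.18 CPM, from 5, 6, 21 and 11 UMIs (4.05, 1.58 to 12.3). In all 3 genes miR-146a KO was highest and the WT libraries were lowest. They passed the minimum of 20 UMIs through miR-146a KO alone, so the counts and medians of measured members in T cells describe those members and support no difference.

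Of the members with more UMIs, some were highest in miR-146a KO, with smaller ratios, and others were not. Top2a was at 4.01, 7.23, 14.9 and 4.56 CPM, from 32, 33, 59 and 23 UMIs (2.07, 1.33 to 3.27). Hmgb2 was at 181, 224, 309 and 250 CPM (1.38, 1.27 to 1.5) and Mcm6 at 43.9, 70.3, 96.2 and 82.8 CPM (1.37, 1.18 to 1.59). Pcna was at 55.0, 58.7, 62.8 and 54.1 CPM, a ratio of 1.07 (0.896 to 1.28). Mcm2 was lowest in miR-146a KO, at 29.8, 31.8, 28.6 and 35.5 CPM. The member that was lower was Aurka, with 15 UMIs in Aged WT and 5 in miR-146a KO (0.385, 0.11 to 1.12), and Rrm1 had the next lowest ratio (0.870, 0.629 to 1.20).

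**Figure D4:**
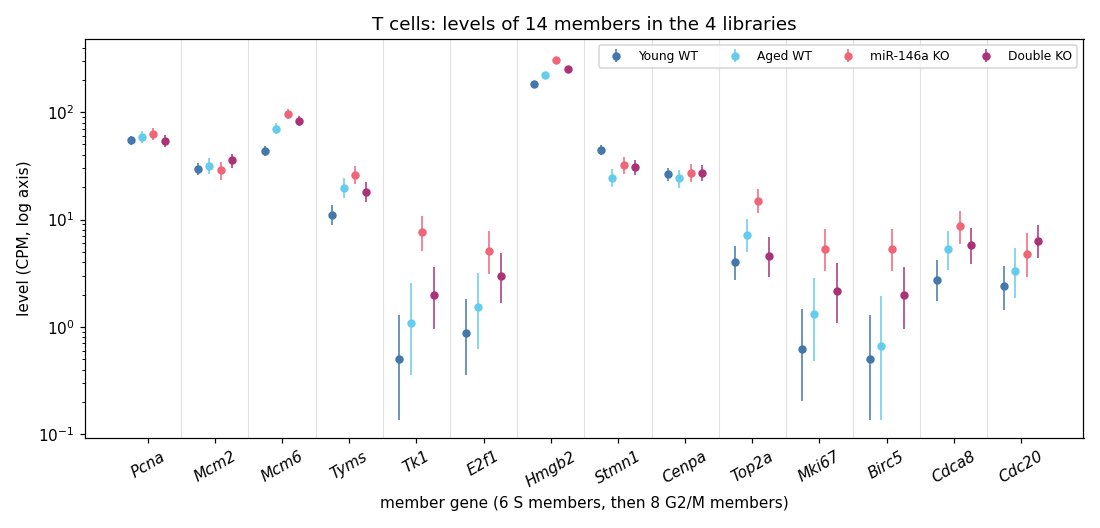
Level in T cells (CPM, log axis) of 14 members in the 4 libraries, with 95% counting intervals. Pcna and Cenpa are level across libraries, while Tk1, Top2a, Mki67 and Birc5 are highest in miR-146a KO, and Stmn1 is highest in Young WT.

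The Double KO, whose T cells lacked miR-155 as well, had lower levels in T cells than miR-146a KO. The core G2/M ratio was 0.639 (0.553 to 0.739) and the S ratio 0.875 (0.82 to 0.93). Of 29 measured members none was higher, where 3.91% of all 10101 measured genes were, and 11 were lower, where 7.71% were. Median log2 ratios were -0.34 for the members and -0.04 for all genes. The lowest ratios were those of Prc1, with 21 and 5 UMIs (0.186, 0.0549 to 0.508), and Cdca3, with 19 and 5 UMIs (0.206, 0.0601 to 0.570). Top2a was at 14.9 and 4.56 CPM (0.305, 0.180 to 0.501). The highest were those of Cdc20 at 4.81 and 6.34 CPM (1.32, 0.724 to 2.46) and Mcm2 (1.24, 0.974 to 1.58), whose intervals held 1. Against Aged WT the Double KO core sum was 1.07-fold (0.91 to 1.25), an interval that also holds 1. These comparisons share libraries, the miR-146a KO library here and the Aged WT library above, so a high value of miR-146a KO enters both.

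By T cell type, Mem Cd8, Nai Cd4 and Mem Cd4 cells each had their highest core value in miR-146a KO. The core G2/M sum of Mem Cd8 cells was 48.2, 53.9, 112 and 41.6 CPM, from 60, 78, 151 and 60 UMIs. That of Nai Cd4 cells was 39.9, 65.8, 121 and 84.4 CPM, and that of Mem Cd4 cells 98.9, 94.3, 115 and 90.9 CPM. The miR-146a KO to Aged WT ratio was 2.08 (1.57 to 2.77) in Mem Cd8, 1.84 (1.34 to 2.53) in Nai Cd4 and 1.21 (0.93 to 1.59) in Mem Cd4 cells, and the difference between the types was not tested. Nai Cd8 cells had 91, 45, 14 and 40 UMIs, at 38.3, 48.3, 40.6 and 51.7 CPM, with overlapping intervals.

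Early Act Cd8 cells were high in S members and not in G2/M members. Their S sum was 470 CPM (383 to 572) in Young WT, 1604 (1410 to 1817) in miR-146a KO and 1045 (897 to 1212) in Double KO, from 70, 35 and 43 cells. The 14 cells of Aged WT had 36 S UMIs and are given no level. Core G2/M UMIs were 10, 1, 10 and 10 in the 4 libraries, and 18, 24, 18 and 18 of the 25 core members had no UMI, among them Cdk1, Ccna2, Ccnb1 and Ccnb2 in every library. S UMIs per core G2/M UMI were 10.1 (5.27 to 21.7), 24.7 (13.2 to 52.2) and 17.6 (9.35 to 37.3) in the 3 libraries, where T cells together had 6.98, 4.40 and 6.03. The S members with most UMIs in miR-146a KO were Mcm6 (38), Dut (33), Mcm5 (28), Mcm3 (27) and Pcna (24). S-positive cells were 11 of 70, 15 of 35 and 13 of 43, and after thinning to 1000 UMIs 2 of 69, 5 of 35 and 1 of 43.

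Ly6c+ Mono cells had core G2/M transcripts in the knockout libraries that were almost missing from the WT libraries. In these cells, inflammatory monocytes, the core sum was 54.4 CPM (29.0 to 93.0) in Young WT, 50.05 (29.2 to 80.1) in Aged WT, 964 (880 to 1054) in miR-146a KO and 983 (905 to 1065) in Double KO, from 13, 17, 482 and 589 UMIs. The miR-146a KO to Aged WT ratio was 19.3 (11.9 to 33.4). Core members without a UMI numbered 21, 19, 0 and 1 of 25. None of 53 and none of 76 WT cells was G2/M-positive, and 20 of 78 (25.6%) and 21 of 106 (19.8%) were in the knockout libraries. A count of 0 among so few cells does not exclude a low share, and 3 positive cells would have been 5.66% and 3.95%. In Fo B cells of the 4 libraries, which should rest, the share was at most 0.493%. After thinning to 1000 UMIs the shares were 0, 0, 15.4% and 11.3%.

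Single members differed in how far they showed it. Ccnb2 had 0, 0, 68 and 61 UMIs in Ly6c+ Mono cells and Birc5 0, 0, 64 and 58. Cdc20 had 0, 0, 30 and 50 and Cdk1 0, 0, 1 and 12, so that Cdk1 was near 0 in miR-146a KO as well. Cenpa, which was present in the WT libraries, was at 37.7, 20.6, 134 and 148 CPM, 6.50-fold (2.99 to 16.8) higher in miR-146a KO than in Aged WT. Hmgb2 was at 439, 424, 1216 and 1176 CPM, a ratio of 2.87 (2.39 to 3.47). The S sum was 105, 94.2, 204 and 310 CPM, so S UMIs per core G2/M UMI were 0.212 and 0.316 in the knockout libraries, below the 0.546 and 0.697 of GC Centrocyte cells there. Neutrophil genes also differed in this type: the 7 summed to 8.37, 23.6, 2393 and 4176 CPM, with Elane, a gene of neutrophil precursors, at 0, 0, 14 and 22 UMIs. The same 7 genes summed to 12.9, 24.5, 867 and 1179 CPM in Fo B cells. Their part in the result was not tested.

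Gran (granulocyte) cells numbered 37, 16, 293 and 461. Core G2/M UMIs were 2 in Young WT, whose cells had a median of only 743 UMIs, and 53 in the 16 cells of Aged WT, 2 of which were G2/M-positive. These 16 cells were 0.271% of named Aged WT cells and held 2.42% of the core G2/M UMIs of named cells there. In miR-146a KO and Double KO, Gran cells were 6.06% and 6.99% of named cells and held 6.90% and 18.8% of those UMIs. Core G2/M transcripts in Gran cells were thus not limited to the knockout libraries, and 16 cells are too few for a level. In miR-146a KO and Double KO the core sum was 335 (304 to 368) and 643 (608 to 679) CPM, and 26 of 293 (8.87%) and 62 of 461 (13.4%) cells were G2/M-positive. The Double KO to miR-146a KO ratio was 1.92 (1.72 to 2.15) for the core and 1.86 (1.58 to 2.20) for S. Ube2c had 19 and 104 UMIs, Cdk1 7 and 47, and Ccnb2 46 and 130. Hmgb2 was at 1605 and 1795 CPM in these cells, and 23.2% of its UMIs over all named cells were in Gran cells. DC/Mac (dendritic cell and macrophage) cells had core sums of 33.4, 62.1, 299 and 198 CPM from 16, 14, 216 and 144 UMIs. Erythroid genes were at 10.4, 66.5, 4147 and 5190 CPM in this type. In miR-146a KO, 0 of 10 G2/M-positive DC/Mac cells and 2 of 148 others passed 10000 CPM of erythroid genes, a limit set after seeing the values. In Double KO these were 0 of 12 and 1 of 133. The part of erythroid RNA was not tested. Ly6c- Mono cells were at 98.7, 95.8, 43.3 and 58.3 CPM with overlapping intervals. These levels rested on only 7, 10, 17 and 24 core UMIs, too few to set this type against the others.

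Many barcodes with G2/M members had no name. G2/M-positive barcodes numbered 59, 82, 364 and 353, and 20, 28, 194 and 135 of them (33.9%, 34.1%, 53.3% and 38.2%) were unnamed, against 10.6%, 15.2%, 15.3% and 9.63% of all barcodes. No named cell had over 9001 UMIs. Of the unnamed barcodes with more than 9000 UMIs and a mitochondrial share under 5%, 15 of 41 (36.6%), 18 of 92 (19.6%), 153 of 269 (56.9%) and 123 of 239 (51.5%) were G2/M-positive. Thinned to 1000 UMIs these shares were 19.5%, 8.70%, 28.3% and 26.4%, in each library above the 0.282%, 0.410%, 1.95% and 1.78% of named cells. Barcodes of such depth can hold more than 1 cell, and no doublet caller was run.

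**Figure D5:**
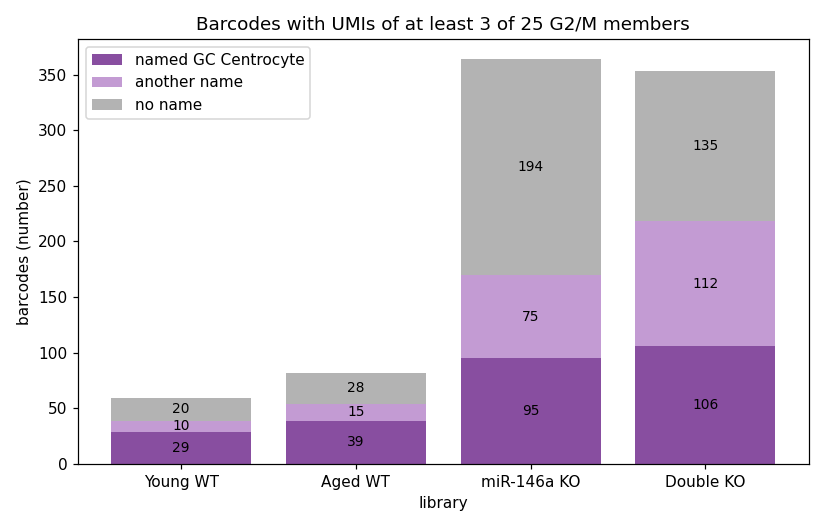
Number of barcodes with UMIs of at least 3 of the 25 core G2/M members in each library, split by name (stacked bars; dark purple named GC Centrocyte, light purple another name, grey no name). In miR-146a KO the 194 barcodes without a name outnumber the 95 named GC Centrocyte and the 75 with another name.

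By lineage genes, with limits set after seeing the values, the G2/M-positive barcodes over 9000 UMIs in miR-146a KO held 61 with B cell genes, 53 with myeloid genes, 26 with neutrophil genes, 14 with T cell genes and 26 with none of the lists, and 1 barcode may count in several lists. In Double KO these were 48, 48, 34, 10 and 18. In Aged WT, 12 of 18 had B cell genes, 2 T cell genes and none myeloid genes. The barcodes of this depth that were not G2/M-positive were in part plasma cells, with 50 of 116 in miR-146a KO and 50 of 74 in Aged WT past the limit for plasma cell genes, against 1 of 153 and 2 of 18 of the positive ones.

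Other cell cycle genes were read from 6 lists chosen with earlier results of these data known. In B cells, miR-146a KO against Aged WT, 35 of 49 measured genes of a list of other mitosis genes were higher and none lower (median log2 1.01), where 7.83% and 4.2% of all measured genes were, and 10 of 36 of other replication genes were higher and none lower (0.30). The highest ratios were those of Ttk, a spindle checkpoint kinase (0.581 CPM in Aged WT and 3.22 in miR-146a KO), and Mcm10, a replication initiation factor (0.349 and 2.45 CPM). Both were near 0 in Aged WT and passed the minimum of 20 UMIs through miR-146a KO. Counts and medians of these lists include such genes, so they describe the measured genes and support no difference. Of the G1 cyclins and kinases 2 of 10 were higher and 1 lower, of the inhibitors 2 of 6 were higher, of the pocket protein, E2F and DREAM list 5 of 17 were higher and 1 lower, and of 8 quiescence genes none was higher and Txnip was lower. Ccnd2, cyclin D2, was at 126, 113, 180 and 144 CPM in B cells and Cdkn1b, the inhibitor p27, at 57.5, 52.9, 49.6 and 45.5 CPM. Foxm1 and Mybl2, factors of the G2/M genes, had 11, 10, 21 and 17 and 11, 16, 28 and 40 UMIs.

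In T cells, miR-146a KO against Aged WT, 4 of 27 other mitosis genes and 9 of 29 other replication genes were higher and 1 was lower in each list, where 10.2% and 5.66% of all measured genes were. Of the inhibitors 3 of 6 were higher. Myc, a driver of cell growth, was at 45.8, 40.3, 23.0 and 35.9 CPM in T cells, lowest in miR-146a KO, where the core G2/M sum was highest (ratio to Aged WT 0.572, 0.440 to 0.739). Ccnd2 was at 628, 618, 565 and 560 CPM and Ccnd3, cyclin D3, at 190, 217, 214 and 212 CPM. Cdkn1a, the inhibitor p21, had 4, 6, 18 and 14 UMIs (3.47, 1.32 to 10.7) and Cdkn2a had the highest ratio of the inhibitors, at 0.877 CPM in Aged WT and 7.09 in miR-146a KO. Cdkn2a was also the inhibitor with the lowest ratio from miR-146a KO to Double KO, where it was at 1.98 CPM. Cdkn1a and Cdkn2a passed the minimum of 20 UMIs through miR-146a KO, and that library enters both comparisons. Their ratios and the count of higher inhibitors therefore describe the measured genes and support no difference.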

How the data were processed

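Per the labels, sorted spleen cells were sequenced by 10x Genomics single-cell RNA-seq; the labels name both 3-prime and 5-prime chemistry. The authors deposited raw UMI counts per gene and barcode, made with Cell Ranger 3.0.0 on mm10 per the submitters' processing notes, with no normalisation, and a cell type name per barcode (16 names); how names were given is not stated in the sources used here. The members and gene lists were chosen with earlier results of these data known. Counts were summed over the cells of a type or class in each library; CPM divides by the total UMIs of the same cells and multiplies by 1000000. Total UMIs were 19072791, 17561683, 19995131 and 22399381. Sums have exact Poisson intervals, shares exact Clopper-Pearson intervals and ratios conditional binomial intervals, all at 95%; they cover counting error only, and with 1 library per group no test between groups was run. Types under 20 cells in a library are given as UMIs. Median log2 ratios add 1 count. Thinning drew 1000 UMIs per cell without replacement, leaving out shallower cells. No doublet caller was run; cells the authors named T/B dbl were left out of both classes. Full values were given for the 6 members with most UMIs per phase, landmarks, and the highest and lowest ratios per comparison among members with at least 20 UMIs; other members named were chosen after their values were seen. Intervals of ratios were tested on simulated Poisson counts. These held no spread between cells or libraries, so the test says nothing about such spread. Tools were Python 3.11.15, numpy 2.4.6, pandas 2.3.3, scipy 1.17.1, matplotlib 3.10.9 and, for TMM factors, edgeR 4.0.16 in R 4.3.3. Alternatives changed the scaling, the mix of types, single genes, thresholds and depth.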

Additional observations from a re-analysis of the deposited data

Results flagged for a closer look

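T and B cells differed in direction in a few ratios, and none of these differences was tested. From miR-146a KO to Double KO the S ratio was 0.875 for T and 1.07 for B cells. From Young WT to Aged WT the G2/M ratio was 1.15 for T and 0.908 for B cells, and the sum of the 25 members without Hmgb2 and Stmn1 had ratios of 1.37 and 0.898.

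Barcodes without a cell type name, which enter none of the comparisons of T and B cells, had core G2/M sums above those of the WT libraries. The sum was 1730 CPM in miR-146a KO and 1421 CPM in Double KO, against 436 CPM in Young WT and 435 CPM in Aged WT.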

How the results depend on the processing

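All values are single libraries, so no alternative tests a difference between groups. The 18 sums, as log2 ratios, were each recomputed under those of 9 alternatives that applied to them, 117 values in all. Of these values 107 had the sign of the main value and 54 lay outside its counting interval. The cause was not tested. No paired analysis was possible because each group has 1 library. Below, the ageing ratio is Aged WT to Young WT, the single ratio miR-146a KO to Aged WT, and the double ratio Double KO to miR-146a KO. Leaving out GC Centrocyte cells, and Hmgb2 with Stmn1, was chosen after seeing the data.

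With the types weighted as in Aged WT, S was 0.074 (ageing) and -0.011 (single) in named cells, 0.069 (single) in T cells and -0.033 (single) in B cells, and G2/M was -0.11, 0.46 and -0.15 (ageing, single, double) in named cells, 0.027 (ageing) in T cells and 0.32 (single) in B cells. TMM scaling gave 0.14 for S and 0.084 for G2/M in T cells (ageing), and 1.31 for G2/M in named cells (single). A total without ribosomal protein, mitochondrial, haemoglobin, T cell receptor and immunoglobulin genes gave S 0.18 in named cells (single) and 0.15 and 0.17 in T cells (ageing, single), and G2/M 1.20 in named cells (single) and 0.095 and 0.41 in T cells (ageing, single). Every barcode gave S 0.89 and -0.27, and G2/M 1.76 and -0.26 (single, double). The mean over cells gave S 0.11 in named cells (single), 0.10 and -0.081 in T cells and 0.30 and 0.027 in B cells (single, double), and G2/M 0.030, 1.17 and -0.17 in named cells, 0.37 in T cells (single) and -0.29 in B cells (double).

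Without Dut, S was 0.19 in named cells (ageing). Without GC Centrocyte cells, S was -0.0099 in named cells (single) and -0.021 and 0.021 in B cells (single, double), and G2/M was 0.020, 1.07 and 0.18 in named cells and 0.22 in B cells (single). Without Hmgb2, G2/M was 1.37 and -0.049 in named cells (single, double), -0.042, 0.65 and -0.49 in T cells and 1.45 in B cells (single). Without Hmgb2 and Stmn1, it was 0.23, 1.45 and -0.10 in named cells, 0.46, 0.74 and -0.65 in T cells, and 1.52 and -0.16 in B cells (single, double).

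Counts of members depended on the minimum and the fold. With a minimum of 50 UMIs in place of 20, members higher and lower by 1.5-fold were 3 and 1 (ageing), 2 and 0 (single) and 0 and 1 (double) in T cells, and with a minimum of 1 UMI 22 and 4, 21 and 1, and 0 and 21. In B cells the 34 higher members (single) numbered 34 under both minima and 29 at 2-fold, where T cells had 3 and 0, 8 and 1, and 0 and 8; the ageing counts of 1 and 4 were 0 and 2 at 50 UMIs and 0 and 0 at 2-fold, and the 3 lower members (double) numbered 0 at 2-fold. G2/M-positive shares of named cells were 1.39%, 2.26%, 6.02% and 4.94% with 2 members needed and 0.396%, 0.560%, 2.55% and 2.47% with 5, and 0.132%, 0.271%, 1.24% and 0.986% after thinning to 500 UMIs, so each share is set by its threshold.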
